A study of Mus musculus with 3 samples.

Results

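The genes described here are those of the surrogate light chain and of the conventional immunoglobulin lambda locus of the mouse: Igll1, Vpreb1 and Vpreb2, the constant regions Iglc1, Iglc2 and Iglc3, and the variable segments Iglv1, Iglv2 and Iglv3. They were chosen by symbol, through the Entrez identifiers of the count table, and all 9 were found among its 26286 genes. RNA was sequenced from bone marrow pre-B cells in 3 libraries that form 1 group, called replicates 1, 2 and 3. The mice were CAG-rtTA3;TRE-GFP-shLuc.1309 bitransgenics, in which a ubiquitous promoter drives a doxycycline-responsive transactivator and that transactivator switches on a GFP-linked control hairpin against luciferase. All had doxycycline for 3 days, and GFP+, B220+, IgM-, Kit-, CD25+ cells were sorted, so that every library carries the transgenes, the drug and the hairpin. The labels give no strain background, age or pooling, and leave unsaid how many animals the libraries came from.

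The surrogate light chain is made of a variable-like protein, encoded by Vpreb1 or Vpreb2, and a constant-like protein, lambda 5, encoded by Igll1. It pairs with the mu heavy chain before any light chain gene has been rearranged, and the resulting pre-B cell receptor tests the heavy chain and signals for division. Its genes are then switched off, and the cell rearranges kappa and, usually later, lambda variable and joining segments, whose products replace the surrogate chain. CD25 is a marker of pre-B cells, among them the small ones in which light chain rearrangement takes place. The gate as described names no cell size.

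Total counts were 12418054, 12021576 and 32086649 in replicates 1, 2 and 3. Levels are RPKM, in which a count is divided by the gene's length and by the scaled total of its library, and are given as mean ± SD over the 3 libraries. Replicate 1 stood apart in sex-linked genes, with Xist at 102 RPKM, against 0.438 RPKM in replicate 2 and 0.121 RPKM in replicate 3. The Y-linked gene Ddx3y was at 0.0173 RPKM in replicate 1, against 35.1 RPKM in replicate 2 and 32.7 RPKM in replicate 3. Replicate 1 thus has the transcripts of female cells and replicates 2 and 3 those of male cells. The libraries therefore came from at least 2 animals. Whether replicates 2 and 3 share an animal is not stated, so technical spread and spread between animals cannot be told apart there. Each main difference is also given without replicate 1. The gate's own marker Il2ra, which encodes CD25, was at 86.6, 108 and 73.1 RPKM in replicates 1, 2 and 3, and all 5 pre-B markers examined exceeded 1 RPKM in every library. Of other cells, 7 of 7 neutrophil markers exceeded 1 RPKM in every library, with a summed level of 1241, 1498 and 2215 RPKM. None of the 5 T cell markers and none of the 3 plasmacytoid dendritic cell markers did, with summed levels of 1.33 to 1.49 RPKM and 1.39 to 5.15 RPKM, and no marker in any of these lists was at 0 in all libraries. Of mature B cell markers 5 of 7 exceeded 1 RPKM in every library, Fcer2a and Cr2 staying at 0.185 and 0.244 RPKM on average, and of plasma cell markers 2 of 5 did.

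The 9 genes hold 3 pairs of near-identical copies, and this bears on every count below. In the coding parts of the GENCODE M21 transcripts (GRCm38), Vpreb1 and Vpreb2 were the same at 417 of 426 aligned bases (97.9%). Iglc2 and Iglc3 were the same at 303 of 314 bases (96.5%), and Iglv1 and Iglv2 at 340 of 351 (96.9%). Iglc1 stood further off, at 74.8% identity to Iglc2 and 75.4% to Iglc3, and Iglv3 shared 61.4% with Iglv1. Igll1 was closest to Iglc1, at 78.2%, above its 70.7% and 71.6% identity to Iglc2 and Iglc3. All 9 lie on chromosome 16, where gene annotation on GRCm38 orders the lambda locus, in the direction of transcription, as Iglv2, Iglv3, Iglj2, Iglc2, Iglv1, Iglj3, Iglc3, Iglj1 and Iglc1, with the pseudogenes Iglj4, Iglc4 and Iglj3p among them. Igll1 and Vpreb1 are next to each other on the minus strand, and Vpreb2 lies apart from both on the plus strand.

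**Figure D1:**
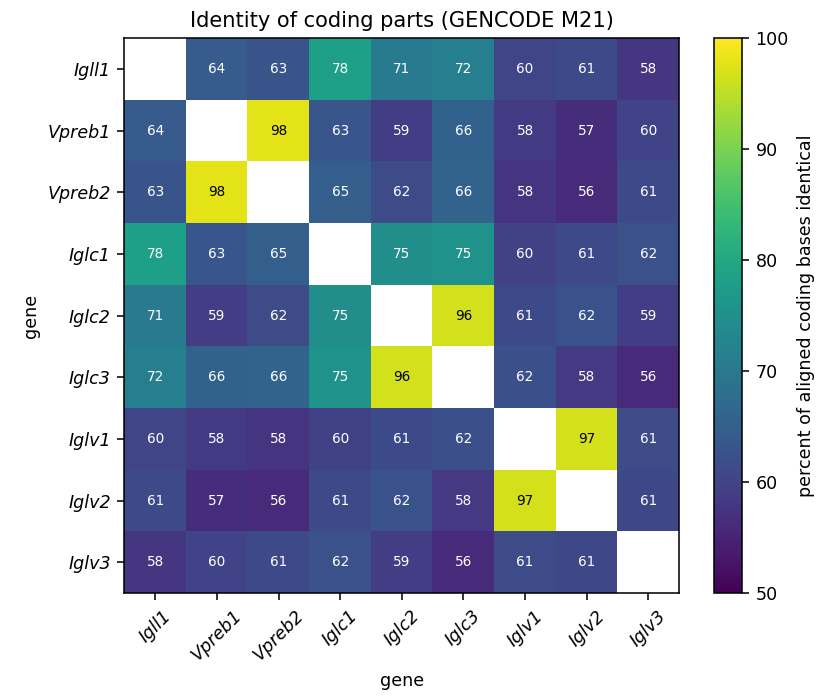
Percent of aligned coding bases that are identical, for each pair of the 9 genes; both axes list the genes and the colour scale runs from 50 to 100 percent. Vpreb1 with Vpreb2, Iglc2 with Iglc3 and Iglv1 with Iglv2 are above 95, and Igll1 is nearest to Iglc1, at 78.2.

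The stretches below show how little sets the copies apart. Each is the run of 150 coding bases of a pair that holds the most differences, 5′ to 3′ in the sense of the transcript, from GENCODE M21 on GRCm38, with the bases that differ in capitals. In Vpreb1 and Vpreb2 it covers coding bases 238 to 387 and holds 6 of the 9 differences.

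Vpreb1: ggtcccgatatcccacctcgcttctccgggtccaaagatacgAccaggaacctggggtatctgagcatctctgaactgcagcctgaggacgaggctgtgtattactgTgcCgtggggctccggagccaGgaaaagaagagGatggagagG

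Vpreb2: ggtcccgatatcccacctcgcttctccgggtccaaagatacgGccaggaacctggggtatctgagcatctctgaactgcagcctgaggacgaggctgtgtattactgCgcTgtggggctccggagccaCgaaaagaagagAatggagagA

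For the constant regions it covers bases 2 to 151 of Iglc2 and 1 to 150 of Iglc3, with 7 of their 11 differences.

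Iglc2: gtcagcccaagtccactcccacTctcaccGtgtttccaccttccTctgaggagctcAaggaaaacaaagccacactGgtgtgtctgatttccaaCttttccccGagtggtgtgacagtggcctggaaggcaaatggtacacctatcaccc

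Iglc3: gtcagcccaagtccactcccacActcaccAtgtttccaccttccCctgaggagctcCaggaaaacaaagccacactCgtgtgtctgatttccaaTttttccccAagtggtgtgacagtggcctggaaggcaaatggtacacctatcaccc

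For the variable segments it covers bases 1 to 150, with 6 of 11 differences.

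Iglv1: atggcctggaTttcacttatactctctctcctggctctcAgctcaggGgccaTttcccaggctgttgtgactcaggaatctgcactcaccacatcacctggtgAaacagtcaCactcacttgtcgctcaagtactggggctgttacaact

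Iglv2: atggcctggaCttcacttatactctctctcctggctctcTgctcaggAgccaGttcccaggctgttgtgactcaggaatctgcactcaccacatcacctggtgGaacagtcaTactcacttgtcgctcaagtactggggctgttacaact

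Of all runs of 31 bases in the coding part, 57.6% of those of Vpreb1 also occurred in Vpreb2, 32.3% of those of Iglc2 in Iglc3, and 41.4% of those of Iglv1 in Iglv2. Runs of Igll1 and of Iglv3 occurred in no other annotated transcript, and Iglc1 shared 0.348% of its runs, with the pseudogene Iglc4. The sources used here do not say how reads that align to several genes, or that span a V, J and C segment, were counted. In GENCODE M21 the 5′ end of Vpreb1 overlaps Top3b on the other strand and Iglj2 lies within the span of Iglc2, and the strand setting of the counting is likewise not stated. Single values of the paired copies are therefore uncertain, and sums over the Vpreb, lambda constant or lambda variable rows are given beside them. The table counted Vpreb1 over 768 bases but Vpreb2 over 429, close to its coding length of 426 alone, so that the untranslated ends of Vpreb2 had no share in its count.

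Igll1 (Entrez 16136), the constant-like chain, had 299, 336 and 1183 counts in replicates 1, 2 and 3, or 27.7, 32.2 and 42.3 RPKM. The mean was 34.1 ± 7.46 RPKM (n = 3), higher than 84.1% of the 17423 genes with a count. Replicate 3 was highest, and its exact 95% Poisson interval, 39.9 to 44.7 RPKM, lay above those of replicates 1 (24.6 to 30.99) and 2 (28.9 to 35.9), which overlapped.

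Vpreb1 (Entrez 22362), the variable-like copy with more counts, had 192, 227 and 747 counts, or 20.1, 24.7 and 30.2 RPKM, with a mean of 25.0 ± 5.06 RPKM (n = 3). The libraries stood in the same order as for Igll1. Vpreb2 (Entrez 22363) had 7, 10 and 23 counts, or 1.31, 1.95 and 1.67 RPKM, with a mean of 1.64 ± 0.317 RPKM. These are few reads: the 95% Poisson interval in replicate 1 ran from 0.528 to 2.71 RPKM, and those of all 3 libraries overlapped. Intervals cover counting error only.

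Vpreb2 took 3.52% of the joint counts of the pair in replicate 1 (exact Clopper-Pearson 95% interval 1.43 to 7.11%), 4.22% in replicate 2 (2.04 to 7.62%) and 2.99% in replicate 3 (1.90 to 4.45%). Per length its share was 6.13%, 7.31% and 5.22% of the summed RPKM. On the log2(RPKM + 0.5) scale Vpreb2 minus Vpreb1 was -3.57 ± 0.24, an 11.8-fold lower level, negative in 3 of 3 libraries. That value moves with the pseudocount, to -3.85 with 0.1 and -3.29 with 1, because Vpreb2 is low. As CPM it was -4.02, and it also depends on how reads shared by the copies were counted, which is not stated. Of the annotated neighbours outside the family, Top3b, a topoisomerase gene beside Vpreb1, stood at 31.5 ± 2.65 RPKM, and Dgcr6, beside Vpreb2, at 14.5 ± 1.85 RPKM.

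The variable-like and constant-like parts kept a near-fixed proportion. Summed over both copies, Vpreb stood at 21.4, 26.6 and 31.9 RPKM, or 77.5%, 82.6% and 75.5% of Igll1 in replicates 1, 2 and 3. The difference Vpreb minus Igll1 was -0.34 ± 0.07 on the log2 scale, negative in 3 of 3 libraries, and -0.34 without replicate 1.

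**Figure D2:**
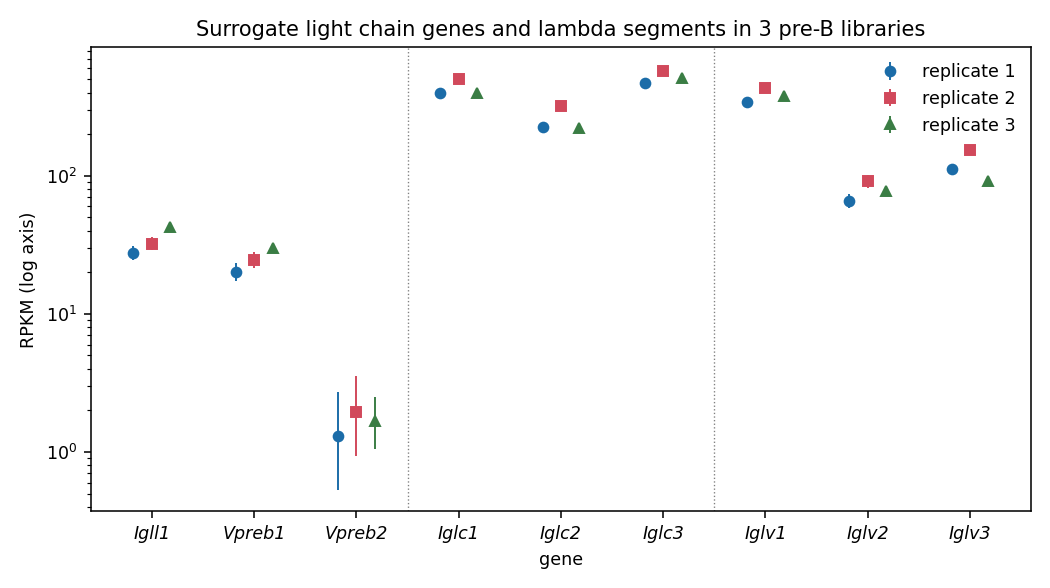
RPKM of each gene in each library on a log axis, with exact 95% Poisson intervals of the counts; dotted lines part the surrogate light chain, lambda constant and lambda variable genes. Igll1 and Vpreb1 lie between 20.1 and 42.3 RPKM, Vpreb2 between 1.31 and 1.95, and every lambda segment between 65.7 and 575.

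The lambda constant regions were among the most abundant transcripts. Iglc3 (Entrez 110787) had 468, 575 and 514 RPKM in replicates 1, 2 and 3, a mean of 519 ± 53.7 RPKM (n = 3) that exceeded 99.5% of genes with a count. Iglc1 (Entrez 110785) had 402, 502 and 401 RPKM, with a mean of 435 ± 58.2 RPKM. Iglc2 (Entrez 110786) had 228, 323 and 222 RPKM, with a mean of 258 ± 56.8 RPKM. Replicate 2 was highest for each of the 3, and the ranges of Iglc3 and Iglc1 overlapped while that of Iglc2 lay below both.

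Iglc3 took 42.5%, 40.9% and 45.05% of the summed constant region counts in replicates 1, 2 and 3, Iglc1 36.8%, 36.1% and 35.5%, and Iglc2 20.7%, 23.0% and 19.5%. The exact 95% interval of the Iglc2 share in replicate 2, 21.9 to 24.2%, did not overlap that in replicate 3, 18.8 to 20.2%. Iglc2 minus Iglc3, the near-identical pair, was -1.03 ± 0.19 on the log2(RPKM + 0.5) scale, a 2.04-fold lower level of Iglc2 in 3 of 3 libraries. Iglc1 minus Iglc3 was -0.26 ± 0.09 and negative in 3 of 3.

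Among the variable segments Iglv1 led. Iglv1 (Entrez 16142) had 345, 431 and 378 RPKM in replicates 1, 2 and 3, a mean of 385 ± 43.3 RPKM. Iglv3 (Entrez 404743) had 111, 154 and 92.3 RPKM, with a mean of 119 ± 31.9 RPKM and the widest spread of the 9 genes, a coefficient of variation of 26.7%. Iglv2 (Entrez 110612) had 65.7, 91.1 and 77.7 RPKM, with a mean of 78.2 ± 12.7 RPKM. Replicate 2 was again highest for each of the 3, and the ranges of the 3 segments did not overlap.

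Of the variable segment counts, Iglv1 held 65.4%, 63.0% and 68.4% in replicates 1, 2 and 3, Iglv3 22.2%, 23.7% and 17.6%, and Iglv2 12.4%, 13.2% and 13.997%. The Iglv3 share was lowest in replicate 3, where its exact 95% interval, 16.6 to 18.5%, lay below those of replicates 1 (20.5 to 23.9%) and 2 (22.2 to 25.3%). For the near-identical pair, Iglv2 minus Iglv1 was -2.30 ± 0.08 on the log2 scale, a 4.92-fold lower level in 3 of 3 libraries.

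**Figure D3:**
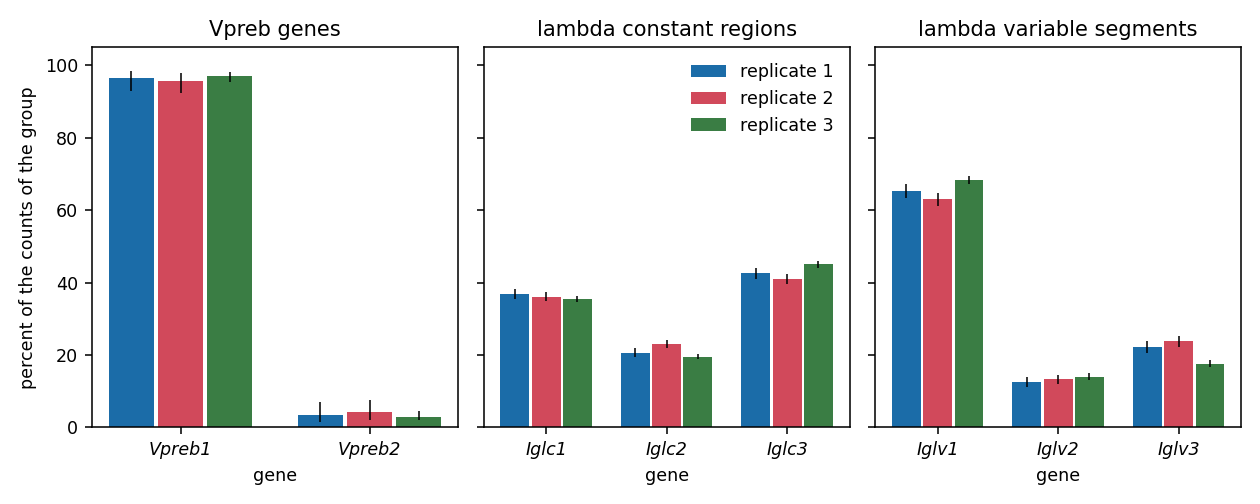
Percent of the counts of each group taken by each gene, per library, for the Vpreb genes, the lambda constant regions and the lambda variable segments; error bars are exact 95% binomial intervals. Vpreb1, Iglc3 and Iglv1 lead their groups in every library, and Iglv3 is lowest in replicate 3, at 17.6%.

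Ordered by mean level the 9 genes ran Iglc3, Iglc1, Iglv1, Iglc2, Iglv3, Iglv2, Igll1, Vpreb1 and Vpreb2. Of the 8 neighbouring pairs in that order, the ranges overlapped for Iglc3 with Iglc1, Iglc1 with Iglv1 and Igll1 with Vpreb1 and for no other pair. Within a library, the higher gene of a pair was higher in 3 of 3, these 3 pairs included, with log2 differences of 0.26 ± 0.09, 0.18 ± 0.08 and 0.44 ± 0.05. An exact sign-flip test over 3 libraries cannot go below a two-sided p of 0.25, which is the value for each of these pairs. The test therefore decides none of them, and the order was itself taken from the means of these same libraries.

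The comparison of the surrogate chain with its conventional counterparts was made part by part. Igll1, against the sum of the 3 lambda constant regions, was at 27.7, 32.2 and 42.3 RPKM, against 1097, 1401 and 1138 RPKM in the same libraries. It reached 2.52%, 2.30% and 3.71% of the lambda level in replicates 1, 2 and 3. The difference Igll1 minus lambda C was -5.15 ± 0.36 on the log2(RPKM + 0.5) scale, a 35.4-fold lower level of Igll1, negative in 3 of 3 libraries and -5.08 without replicate 1. Per read rather than per length, as CPM, it was -3.69, since the Igll1 row is 870 bases long and the constant rows 317 to 320.

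Vpreb, against the sum of the 3 lambda variable segments, was at 21.4, 26.6 and 31.9 RPKM, against 522, 676 and 548 RPKM. It reached 4.11%, 3.93% and 5.82% of the lambda V level. The difference Vpreb minus lambda V was -4.43 ± 0.31, a 21.6-fold lower level of Vpreb, negative in 3 of 3 libraries and -4.36 without replicate 1. As CPM it was -3.35. In both comparisons the difference was smallest in replicate 3. Here and below, in sorted but bulk RNA, fewer cells that express a gene and less of its RNA per cell cannot be told apart.

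**Figure D4:**
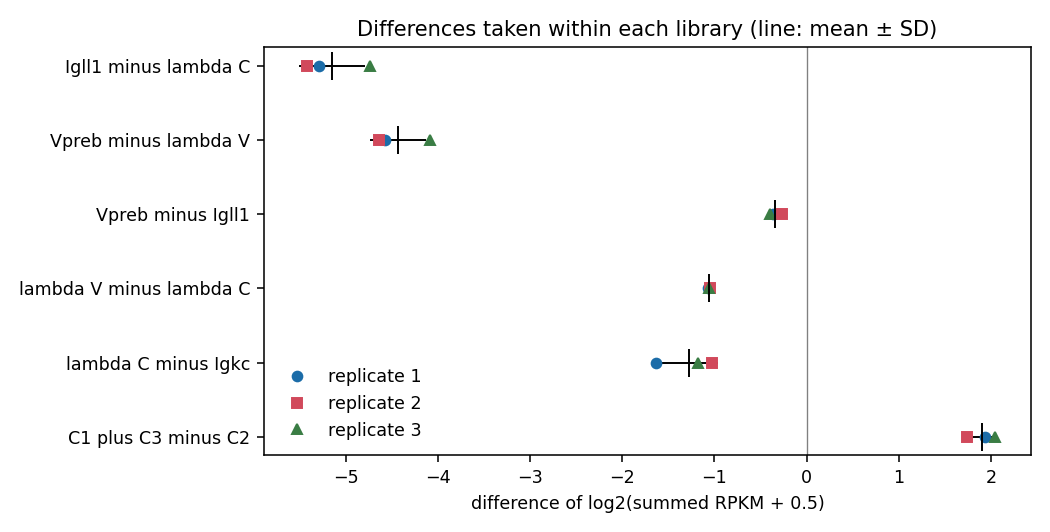
Differences of log2(summed RPKM + 0.5), taken within each library; points are libraries and the black line is the mean ± SD over 3. Igll1 minus lambda C averages -5.15 and Vpreb minus lambda V -4.43, and lambda V minus lambda C has nearly one value in all libraries, -1.06 ± 0.01.

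Variable and constant parts of the lambda locus also kept close to one proportion. The summed variable segments were at 47.6%, 48.3% and 48.1% of the summed constant regions in replicates 1, 2 and 3, a difference of -1.06 ± 0.01 on the log2 scale and -1.05 without replicate 1. The locus has an upstream cluster, in which Iglv2 and Iglv3 precede Iglc2, and a downstream cluster, in which Iglv1 precedes Iglc3 and Iglc1. Iglc1 and Iglc3 together stood at 870, 1077 and 916 RPKM, against 228, 323 and 222 RPKM for Iglc2, a difference of 1.90 ± 0.15, positive in 3 of 3 libraries and 1.89 without replicate 1. Split in the same way, Iglv1 was at 39.7%, 40.0% and 41.3% of its constant regions, and Iglv2 plus Iglv3 at 77.8%, 76.0% and 76.5% of Iglc2. The split by cluster parts near-identical copies, Iglc2 from Iglc3 and Iglv2 from Iglv1. Its values therefore depend on how shared reads were counted, which is not stated. Counts per segment do not tell transcripts of a rearranged locus from those of an unrearranged one.

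The joining segments, which link V to C, were also measured. Iglj1, Iglj2 and Iglj3 are 38 bases long each and stood at 246 ± 45.6, 176 ± 41.2 and 195 ± 12.2 RPKM. These levels rest on 65 to 286 counts per library and on the short length. As CPM, summed lambda J was at 23.4 on average, against 206 for lambda V. Iglj2, of the Iglc2 cluster, took 25.1%, 30.7% and 29.2% of the lambda J counts in replicates 1, 2 and 3. No counted gene matched the pseudogenes Iglj3p, Iglj4 and Iglc4 by symbol, so they have no level here.

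Lambda was then set against kappa, the light chain that most mouse B cells use. Lambda C was at 32.3%, 49.3% and 44.04% of Igkc, the single kappa constant region, in replicates 1, 2 and 3. Lambda C levels of 1097, 1401 and 1138 RPKM stood against Igkc levels of 3396, 2842 and 2585 RPKM. The difference lambda C minus Igkc was -1.28 ± 0.32 on the log2 scale, negative in 3 of 3 libraries, and -1.10 without replicate 1, the library with the lowest lambda and the highest kappa level. The lambda variable segments held 23.0% (exact 95% interval 22.2 to 23.8%) of the light chain variable counts matched by symbol in replicate 1. The share was 29.8% (28.8 to 30.7%) in replicate 2 and 29.5% (28.9 to 30.2%) in replicate 3, the rest falling on 103 kappa variable rows. Kappa rows without a matched symbol, if any, are left out, and the rule for shared reads is not stated for kappa rows either. The intervals cover counting error only. Per length, summed lambda V was at 29.6%, 42.0% and 41.6% of summed kappa V.

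Beside the members stand the genes of the receptor they take part in. As log2(RPKM + 0.5), the 9 light chain genes had a median level of 6.87, the 9 pre-B receptor partners one of 9.28 and the 17423 genes with a count one of 2.56. All 9 partners exceeded 1 RPKM in every library. Ighm, the mu heavy chain, stood at 6749 ± 498 RPKM, and the signalling chain gene Cd79b at 1297 ± 62.2 RPKM. Vpreb3, which shares its name with the surrogate chain genes but lies on another chromosome, stood at 1136 ± 94.7 RPKM, and Igll1 minus Vpreb3 was -5.06 ± 0.42.

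All 11 regulators examined also exceeded 1 RPKM in every library, with a median level of 7.56 on that scale. EBF1 and the E2A proteins, known activators of Igll1 and Vpreb1, are encoded by Ebf1, at 173, 205 and 190 RPKM in replicates 1, 2 and 3, and Tcf3, at 423, 402 and 443 RPKM. Ikaros and Aiolos, known to silence the surrogate genes, are encoded by Ikzf1, at 254, 276 and 264 RPKM, and Ikzf3, at 159, 191 and 156 RPKM. Irf4, Irf8, Spi1 and Spib, whose products bind light chain enhancers, stood at 240 ± 15.6, 74.7 ± 10.9, 75.9 ± 9.41 and 868 ± 28.4 RPKM. Rag1 and Rag2, the recombinase genes, had 401 ± 56.7 and 49.5 ± 3.51 RPKM.

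The promoters of the adjacent genes Igll1 and Vpreb1 are shown because these genes kept the same order over the libraries. Both run from 250 bases before the annotated start to 50 after it, from RefSeq on GRCm38.p6, minus strand, 5′ to 3′. Capitals mark matches to CCCNNGGG, a core of the EBF motif, and to CANNTG, the E-box that E2A proteins bind. Both motifs read the same on either strand.

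Igll1 promoter, chr16:16863936-16864235: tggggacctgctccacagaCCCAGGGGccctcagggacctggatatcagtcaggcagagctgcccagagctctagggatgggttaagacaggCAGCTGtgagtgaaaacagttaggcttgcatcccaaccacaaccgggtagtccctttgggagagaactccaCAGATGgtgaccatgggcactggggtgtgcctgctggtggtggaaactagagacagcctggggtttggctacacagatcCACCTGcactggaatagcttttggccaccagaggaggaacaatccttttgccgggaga

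Vpreb1 promoter, chr16:16869206-16869505: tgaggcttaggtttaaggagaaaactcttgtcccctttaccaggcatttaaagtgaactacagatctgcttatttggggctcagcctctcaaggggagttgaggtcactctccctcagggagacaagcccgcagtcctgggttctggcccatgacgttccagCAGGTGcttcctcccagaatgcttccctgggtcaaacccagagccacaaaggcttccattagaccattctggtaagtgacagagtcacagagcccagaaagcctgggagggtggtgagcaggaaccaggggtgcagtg

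The Igll1 window held 1 match to CCCNNGGG and 3 to CANNTG. Of 32851 promoter windows of the same length, 13.7% hold at least 1 match to CCCNNGGG and 72.3% at least 1 to CANNTG. The median window holds 0 matches to CCCNNGGG and 1 to CANNTG. The Vpreb1 window held 1 match to CANNTG and none to these exact letters of the other motif. The Vpreb2 window, not printed here, held 2 matches to CANNTG and none to CCCNNGGG. A match is a description of the sequence and was not tied to binding by any data here. Any part of these motifs in the order of the libraries was not tested.

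The spread between libraries was tested gene by gene over the 12147 genes that passed a filter on low counts (at least 10 counts in a library of median size in all 3, and 15 in total). Of the 9 genes 8 passed, and Vpreb2 did not. A quasi-likelihood fit in edgeR with only an intercept asked whether a gene's spread exceeded that of genes at its level. None of the 8 passed, with adjusted p between 0.909 and 0.996, where 0.0165% of all genes tested did, and at the unadjusted level 2 of the 8, Iglc2 and Iglv3, were among the 644 genes with p below 0.05. Against counting noise alone, all 8 differed between libraries (chi-square, adjusted p from 1.03e-25 for Iglc2 to 0.000491 for Iglv2), as did 54.6% of all genes tested. Without replicate 3 this was 6 of 8, Igll1 (adjusted p = 0.153) and Vpreb1 (0.115) no longer passing, and the share of all genes tested was lower too, at 25.7%. Without replicate 2, Iglc1 (0.999) and Iglc2 (0.706) no longer passed, and the share of all genes tested was 32.9%.

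The labels give 1 further difference: CASAVA, the Illumina base-calling software, was version 1.8.0 for replicate 3 and 1.8.2 for replicates 1 and 2, so version and library cannot be told apart. Igll1 was at 42.3 RPKM in replicate 3, against 27.7 and 32.2 RPKM in replicates 1 and 2, a log2 fold change of 0.50 ± 0.16 (SE). Its adjusted p was 0.418 in edgeR's quasi-likelihood test. Vpreb1 had a log2 fold change of 0.43 ± 0.19 (adjusted p = 0.528 in the same edgeR test). Iglv3 lay the other way, at 92.3 RPKM in replicate 3, against 111 and 154 RPKM, a log2 fold change of -0.52 ± 0.20 (adjusted p = 0.472, edgeR).

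The other 5 tested members had log2 fold changes between -0.31 for Iglc2 and -0.01 for Iglv2. None of the 8 was called higher and none lower, where 0.0576% of all genes were called higher and 0.0165% lower, and DESeq2 called none of the 8 either. Of the 9 pre-B receptor partners, the 11 regulators and the 2 recombinase genes, none was called in either direction. The median log2 fold change was -0.03 over the 8 members and -0.01 over all genes tested. At the unadjusted level 2 of the 8 members had p below 0.05 in edgeR, Igll1 and Iglv3, beside 1169 of 12147 genes.

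**Figure D5:**
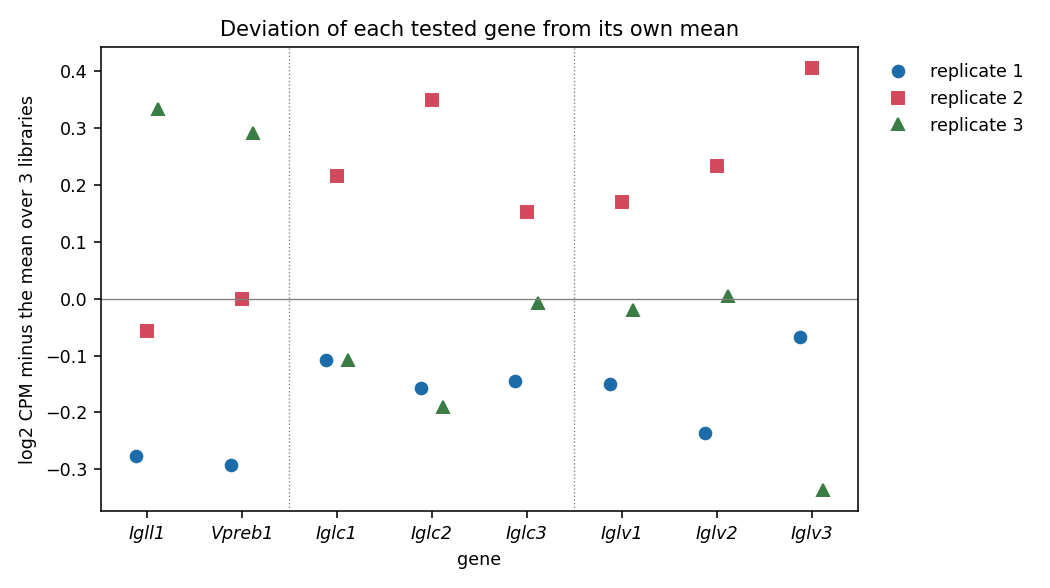
Log2 CPM of each of the 8 tested genes minus its mean over the 3 libraries; points are libraries, and dotted lines part the surrogate, lambda constant and lambda variable genes. Replicate 3 is highest for Igll1 and Vpreb1, at 0.33 and 0.29, and replicate 2 is highest for each lambda segment, from 0.15 for Iglc3 to 0.40 for Iglv3.

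The surrogate genes and the lambda segments stood in different orders over the libraries, though no member was called for variability beyond that of genes at its level, or by version. As log2 CPM centred on each gene's mean, Igll1 was at 0.33 in replicate 3, against -0.28 and -0.06 in replicates 1 and 2, and Vpreb1 at 0.29, against -0.29 and 0.00. The 6 lambda segments were highest in replicate 2, and the lowest library differed among them, replicate 3 for Iglc1, Iglc2 and Iglv3 and replicate 1 for Iglc3, Iglv1 and Iglv2. Near-identical copies and V and C parts of joint transcripts are among them, so they are not 6 separate observations. For Iglc1, replicates 1 and 3 were equal to the second decimal, at -0.11 each.

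Other transcripts were also highest in replicate 3. The summed neutrophil markers stood at 2215 RPKM in replicate 3, against 1241 and 1498 RPKM in replicates 1 and 2, with 5 of 7 highest there. The summed pro-B markers stood at 41.8 RPKM, against 38.8 and 37.2 RPKM, with 3 of 5 highest in replicate 3. Most of each sum was a single gene, Spn, at 34.6 RPKM in replicate 3, against 32.49 and 31.02 RPKM in replicates 1 and 2. The sum therefore says little about the other pro-B markers. Cd34 was highest in replicate 1, at 0.123 RPKM, against 0.0318 and 0.119 RPKM in replicates 2 and 3. The 3 plasmacytoid dendritic cell markers, which include Siglech, summed to 5.15 RPKM in replicate 3, against 2.00 and 1.39 RPKM, and all 3 were highest there. Of the pro-B markers, Kit was lowest there, at 0.432 RPKM, against 1.07 and 0.87 RPKM. Flt3 was highest there, at 1.06 RPKM, against 0.528 and 0.411 RPKM. Dntt, the terminal transferase gene, was at 5.56 RPKM there, against 4.57 and 4.86 RPKM, but its spread did not exceed counting noise (chi-square, adjusted p = 0.175). Il2ra was lowest in replicate 3, at 73.1 RPKM, against 86.6 and 108 RPKM. The share of all genes highest in replicate 3 is not given here, so these counts of markers have no background. The part of any of these transcripts in the level of Igll1 and Vpreb1 was not tested.

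Likeness over the libraries was measured as the Euclidean distance between centred log2 CPM values of 3 libraries, so it rests on 3 points that share depth and handling. For Igll1 the nearest of 12147 tested genes were Map3k9 (distance 0.0076), Rpl10 (0.029), Polr2l (0.031), Pik3r6 (0.033) and Ubxn11 (0.034), and 76 genes lay within 0.1. Mean levels of the named genes were, in that order, 0.63, 21.3, 2.46, 0.41 and 0.92 RPKM, and counting noise weighs more at low levels. Vpreb1, at 0.072, was closer than all but 35 other genes. For Iglc1 the nearest were Abcg2 (0.0017), Cerk (0.0082), Sirt3 (0.0082), Bin3 (0.0087) and Isca2 (0.011), with 529 genes within 0.1. Here the mean levels were, in that order, 1.30, 254, 6.86, 33.5 and 31.5 RPKM. Iglv1, at 0.108, was the nearest other member to Iglc1, with 632 genes closer.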

How the data were processed

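The authors deposited raw counts of reads per Entrez gene, with each gene's length, made with CASAVA and featureCounts on mm9, per the submitters' processing notes. The sources used here do not give the aligner, the annotation, the strand setting or the rule for reads shared between genes. Sample files and series table held the same counts.

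Symbols came from RefSeq on GRCm38.p6 (24176 of 26286 identifiers matched), and sequences from GENCODE M21 and RefSeq on GRCm38, whose build is not that of the counts. No coordinate was joined to a count. Coding parts were aligned with Biopython 1.88.

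Fits were run with edgeR 4.0.16 under R 4.3.3, and DESeq2 1.42.0 as an alternative. TMM factors were 1.0003, 0.9969 and 1.0028 for replicates 1, 2 and 3. From counts, lengths and these factors RPKM was derived, and differences were taken within libraries on the log2(RPKM + 0.5) scale. Benjamini-Hochberg adjustment ran over all genes tested, and 0.05 was the threshold. Sums over genes have no p. The scripts were tested on simulated data.

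The members, lists and differences were chosen with earlier results of these data known. The split of V by cluster, the comparison with kappa V and the pairs of single genes were added after the values were seen. The genes named are the 9 members, genes of the lists, annotated neighbours, and for Igll1 and Iglc1 the 5 genes nearest in their pattern. As alternatives, scaling by DESeq2 size factors or none was tried, and TPM or CPM, other pseudocounts, no filter on low counts, a robust fit, near-identical copies summed, replicate 3 thinned to the smallest total and leaving out each replicate. Figures were drawn with matplotlib 3.10.9.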

Additional observations from a re-analysis of the deposited data

How the results depend on the processing

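The 6 planned differences kept their sign under every alternative run and moved by less than 1 SD, except with CPM in place of RPKM. With CPM, Igll1 minus lambda C was -3.69, Vpreb minus lambda V -3.35, Vpreb minus Igll1 -0.56 and lambda V minus lambda C -0.90, as the rows differ in length. TPM gave the members levels 2.37-fold those in RPKM, and the other scalings moved them by less than 1 SD. Genes more variable than others numbered 2, and 47 with all genes with a count, 0 with a robust fit (604 at an unadjusted p under 0.05) and from 2 to 44 with a replicate left out (8 without replicate 1, 44 without replicate 2). Genes that differ by CASAVA version numbered 9, and 23 with no scaling, 0 with all genes with a count (edgeR, 1224 at an unadjusted p under 0.05) and 36 with DESeq2. Genes beyond Poisson noise numbered 6627, and from 3145 to 5590 with a replicate left out (4256 without replicate 2, 3145 without replicate 3). The cause was not tested. No member was called for variability or by version under any of these settings, and with the copies summed the 6 rows left gave 0 calls in both. The version fit could not be made with a replicate left out: without replicate 1 or 2 no residual degrees of freedom remain, and without replicate 3 both libraries share a version. No paired analysis was possible because the libraries form 1 group. Depth limits Vpreb2 most, with 7 to 23 counts.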
